A study of Homo sapiens with 6 samples.

Results

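Integrins are cell surface receptors made of an alpha and a beta chain, and this account follows 10 chains that epithelial cells use: ITGA2, ITGA3, ITGA5, ITGA6, ITGAV, ITGB1, ITGB4, ITGB5, ITGB6 and ITGB8. They were taken from 18417 genes with a single annotated symbol, and each had 1 row on the array. The set was chosen by gene family after ITGA2 had been seen among the lowest genes following NRF3 siRNA in HCT116-p53KO cells. Values of that comparison are therefore given below as a description. The study used 6 Affymetrix whole-transcript arrays, each for a different group and with 100 ng of total RNA per labelling reaction. HCT116 cells come from a human colon cancer, and HCT116-p53KO cells are their p53-deficient derivative. Both received control siRNA or siRNA against NRF3, a CNC-family transcription factor encoded by NFE2L3, and were harvested 48 h later. H1299 cells, from a human non-small cell lung carcinoma, carried a stably selected GFP or NRF3 plasmid. The labels name neither the plasmids' promoter nor the number of selected clones, nor how HCT116-p53KO was made.

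Each alpha chain needs a beta chain to reach the cell surface. ITGB1 pairs with ITGA2 to bind collagen, with ITGA3 and ITGA6 to bind laminin and with ITGA5 to bind fibronectin. ITGA6 also pairs with ITGB4 in the hemidesmosome, which ties keratin filaments to the basement membrane. ITGAV pairs with ITGB5 to bind vitronectin, and with ITGB6 or ITGB8 to release active TGF-beta from its latent complex. Talin and kindlin bind the cytoplasmic tail of most beta chains and switch the receptor on, and paxillin and other focal adhesion proteins gather there.

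Promoter sequence is shown for the 4 members that were at least 1.5-fold higher or lower after NRF3 siRNA in both colon lines. The windows are the 250 bases before a RefSeq transcript start in GRCh38.p14, read 5′ to 3′ on the gene's strand. ITGA2 lies at chr5:52989102-52989351 on the plus strand and ITGA5 at chr12:54419267-54419516 on the minus strand. ITGB5 has 3 starts, of which the farthest upstream (chr3:124901419-124901668, minus strand) and the farthest downstream (chr3:124887366-124887615, minus strand) are shown. ITGB8 lies at chr7:20330650-20330899 on the plus strand. Capitals mark the antioxidant response element core TGACNNNGC, which CNC factors bind with small MAF proteins, and the GC box GGGCGG, both searched on either strand.
ITGA2: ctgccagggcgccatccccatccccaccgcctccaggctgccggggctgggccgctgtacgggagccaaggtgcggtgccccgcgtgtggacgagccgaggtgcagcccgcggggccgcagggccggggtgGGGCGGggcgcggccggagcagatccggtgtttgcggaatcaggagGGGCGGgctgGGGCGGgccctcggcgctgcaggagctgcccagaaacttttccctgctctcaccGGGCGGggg
ITGA5: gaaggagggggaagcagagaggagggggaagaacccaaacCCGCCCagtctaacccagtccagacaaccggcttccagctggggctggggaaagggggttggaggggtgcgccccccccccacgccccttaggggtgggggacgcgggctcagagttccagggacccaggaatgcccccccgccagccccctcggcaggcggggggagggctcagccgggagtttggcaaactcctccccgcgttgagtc
ITGB5, upstream start: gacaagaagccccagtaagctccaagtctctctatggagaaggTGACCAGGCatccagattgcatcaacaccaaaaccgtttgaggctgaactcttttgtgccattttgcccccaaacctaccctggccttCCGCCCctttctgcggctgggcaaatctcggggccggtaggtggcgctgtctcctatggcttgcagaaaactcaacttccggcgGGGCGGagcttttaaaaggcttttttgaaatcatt
ITGB5, downstream start: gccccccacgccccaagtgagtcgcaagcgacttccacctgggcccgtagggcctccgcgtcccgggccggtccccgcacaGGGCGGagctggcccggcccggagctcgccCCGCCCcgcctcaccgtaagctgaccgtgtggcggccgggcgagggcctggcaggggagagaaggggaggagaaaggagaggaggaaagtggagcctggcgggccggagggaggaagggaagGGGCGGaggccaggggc
ITGB8: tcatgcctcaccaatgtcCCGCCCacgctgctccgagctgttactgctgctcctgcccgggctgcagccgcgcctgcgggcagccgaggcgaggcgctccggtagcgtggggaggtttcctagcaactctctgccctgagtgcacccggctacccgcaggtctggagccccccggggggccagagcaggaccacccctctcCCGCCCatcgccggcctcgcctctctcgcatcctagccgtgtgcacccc

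The antioxidant response element core stood in 1 ITGB5 window, as TGACCAGGC, and in 1 ITGB1 window, as TGACGCGGC. These were 2 of the 13 windows of the 8 members matched in the RefSeq table, against 10.9% of all 35116 windows. The windows shown for ITGA2, ITGA5 and ITGB8 held none. GC boxes stood in 7 of the 13 windows against 42.6% of all windows, and the ITGA2 window held 4 of them. The AP-1 motif TGANTCA stood in 0 of the 13, against 6.57%. A match is a description of the letters, and none of these data measured binding. ITGA3 and ITGB4 were not among the matched members.

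Arrays were read as RMA log2 intensities, where 1 unit is a doubling. Median intensities over 33297 probe sets were 6.95, 6.98 and 6.99 on 3 of the 4 colon arrays, slightly higher on HCT116 with NRF3 siRNA, and 6.05 and 6.08 on the lung arrays, so the lung arrays may have been normalized apart, and levels are not set across these sets without saying so. A gene was counted as expressed in a comparison when it reached 6 on at least 1 of its arrays. Since each group had a single array, no within-line difference has a replicate check, and differences were counted at 1.5-fold. Fewer cells of a kind and less RNA per cell cannot be told apart in such samples. NFE2L3 itself was at 8.97 and 6.62 in HCT116 with control and NRF3 siRNA, at 8.71 and 7.15 in HCT116-p53KO, and at 8.18 and 10.20 in H1299 with GFP and NRF3. All 6 measured epithelial markers were at 6 or more on every colon array, among them EPCAM (10.91 to 11.42). VIL1, CEACAM5, LGR5 and CDH17 of the 7 colon markers stayed under 6 on all of them, while CDX2 was at 8.39 to 8.69. In H1299, KRT8 and KRT18 alone of the epithelial markers reached 6, all 5 mesenchymal markers did (VIM 12.08 and 12.45), and 0 of 5 lung epithelial markers did. The leukocyte marker PTPRC was at 3.05 to 3.80 on the 6 arrays.

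**Figure D1:**
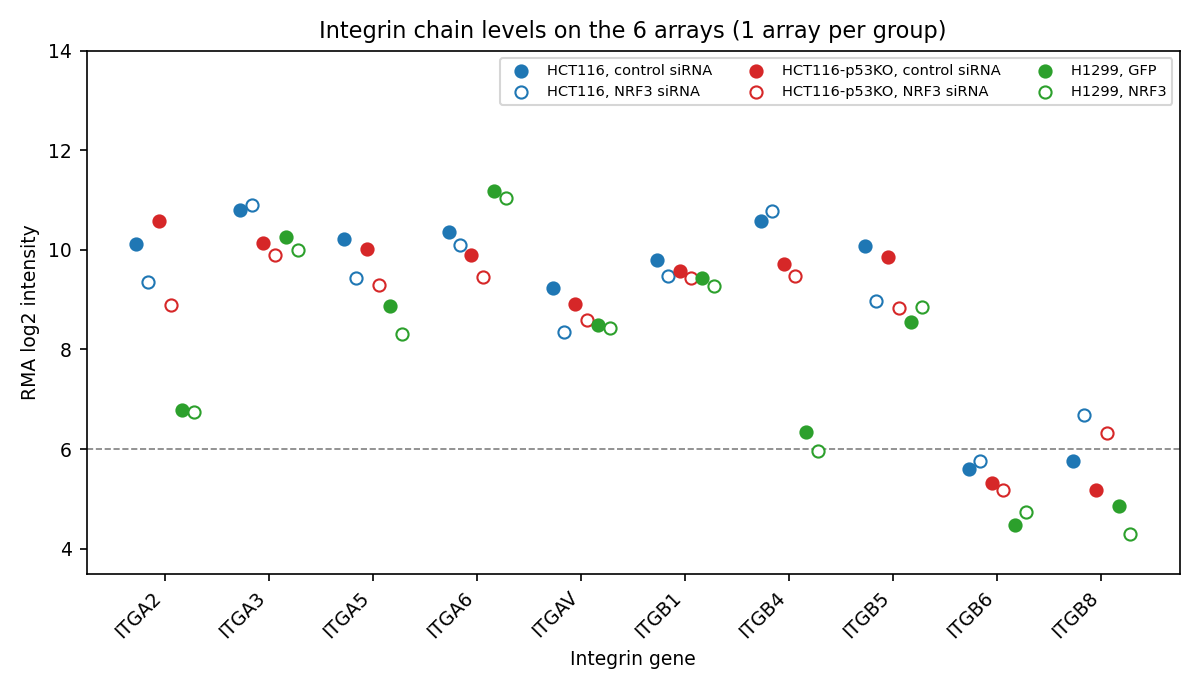
RMA log2 intensity of each integrin gene (horizontal axis) on the 6 arrays, filled points for control siRNA or GFP and open points for NRF3 siRNA or NRF3 plasmid, coloured by line; the dashed line marks 6. ITGB6 lies under 6 on every array, and ITGB8 lies above it only on the NRF3 siRNA arrays (6.69 and 6.32).

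The first question was how these chains differed after NRF3 knockdown in HCT116. The rule for the set names the other colon line, but the set was proposed with earlier results of all these arrays in view. Of the 9 expressed members 4 were at least 1.5-fold lower, ITGB5, ITGAV, ITGA5 and ITGA2, and 1 was at least 1.5-fold higher, ITGB8. Among all 14034 expressed genes 6.02% were at least 1.5-fold lower and 2.71% at least 1.5-fold higher. The median difference of the members was -0.32, against 0.01 for all expressed genes.

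The vitronectin receptor chains were the lowest. ITGB5 was at 10.08 with control siRNA and 8.98 with NRF3 siRNA, a difference of -1.10 or 2.14-fold. Only 95 of the 14034 expressed genes were lower by more. ITGAV, its alpha partner, was at 9.23 and 8.35, or 1.84-fold lower. Both chains of this receptor were thus lower on the same array. The fibronectin receptor chain ITGA5 was at 10.22 and 9.43 (1.73-fold lower), and the collagen receptor chain ITGA2 at 10.11 and 9.35 (1.69-fold lower). ITGB1, the beta partner of both, was at 9.80 and 9.47, a difference of -0.32 that did not reach 1.5-fold.

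The laminin receptor chains differed less in HCT116. ITGA6 was at 10.36 and 10.10 (-0.26), ITGA3 at 10.80 and 10.90 (0.10) and ITGB4 at 10.58 and 10.79 (0.21). ITGB8 went the other way from its ITGAV partner, from 5.76 with control siRNA to 6.69 with NRF3 siRNA, or 1.90-fold higher. The control array lay under 6, low on the scale, so the size is uncertain, and ITGB8 counted as expressed only through the array where it was high. ITGB6 was at 5.60 and 5.77 and was not counted as expressed.

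In HCT116-p53KO the same siRNA was used, and ITGA2 was the reason for choosing the set. It stood at 10.58 on the control array and 8.90 on the knockdown array, a difference of -1.68 or 3.21-fold, and 2 of the 13680 expressed genes were lower by more. Of the 9 expressed members 3 were at least 1.5-fold lower and 1 at least 1.5-fold higher, where 2.38% and 3.63% of all expressed genes were. Nothing is read from these counts, since this comparison chose the set. The median was -0.32 for the members and 0.00 for all expressed genes.

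ITGB5 was at 9.85 and 8.83 (2.03-fold lower) and ITGA5 at 10.02 and 9.29 (1.66-fold lower) in HCT116-p53KO. ITGB8 was at 5.17 and 6.32 (2.21-fold higher), with the control array again under 6 and ITGB8 again counted only through the higher array. These 3 chains stood at similar differences in both colon lines: -1.10 and -1.02 for ITGB5, -0.79 and -0.73 for ITGA5, and 0.93 and 1.15 for ITGB8. ITGAV differed less here, at 8.90 and 8.59 (-0.32). ITGA6 was at 9.90 and 9.45 (-0.44), and ITGB1 at 9.57 and 9.44 (-0.13). ITGA3 was at 10.14 and 9.91 (-0.24) and ITGB4 at 9.73 and 9.48 (-0.24), each with the sign opposite to HCT116. ITGB6 was at 5.31 and 5.17.

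**Figure D2:**
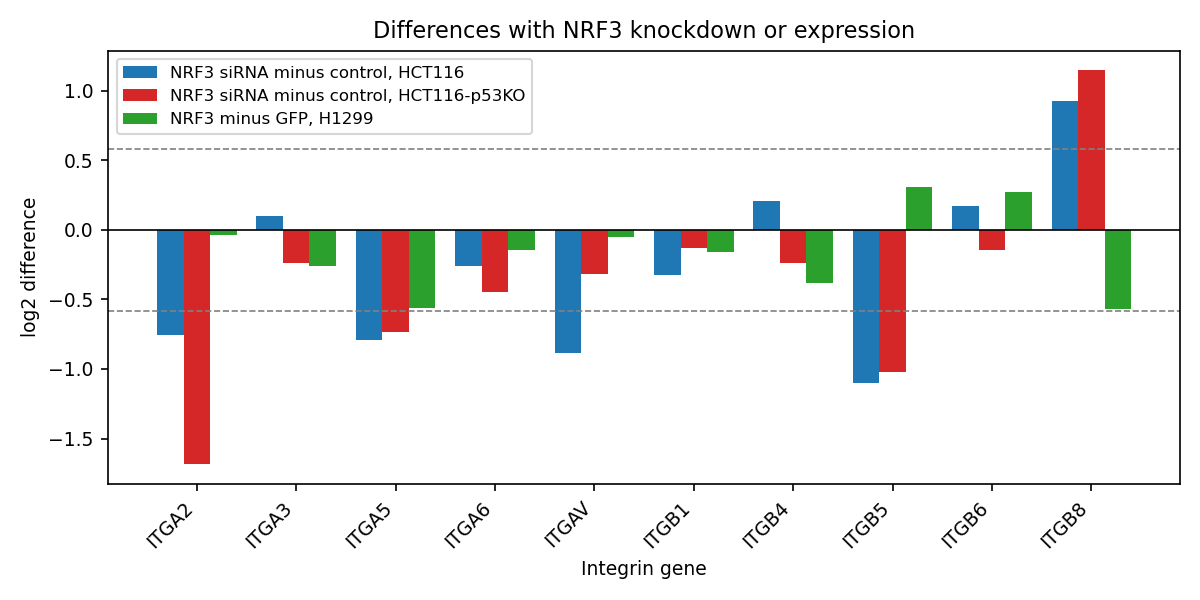
log2 difference of each integrin gene for NRF3 siRNA minus control siRNA in HCT116 (blue) and HCT116-p53KO (red) and for NRF3 minus GFP in H1299 (green), with 1 array on each side; dashed lines mark 1.5-fold. ITGB5, ITGA5 and ITGA2 lie below the lower line and ITGB8 above the upper line in both colon lines, while no H1299 bar passes either line.

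The ITGA2 difference was 0.92 (log2) less negative in HCT116 than in HCT116-p53KO, but the latter value chose the set, so this gap is a description and nothing is read from its size. ITGAV varied in the opposite sense, with -0.57 for HCT116 minus HCT116-p53KO. ITGB4 followed at 0.45. For ITGA5, ITGB5 and ITGB8 the value was -0.06, -0.08 and -0.22. No test across replicates of these differences between lines could be made with 1 array per group.

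In H1299 the question was what stable NRF3 expression did to the same chains. None of the 8 expressed members reached 1.5-fold. Of 11304 expressed genes 4.82% reached it upward and 4.2% downward. The members' median was -0.15 against 0.00 for all expressed genes. ITGA2 was at 6.78 with GFP and 6.74 with NRF3 (-0.04).

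ITGA5 came nearest to the limit in H1299, at 8.88 and 8.32 (-0.56), and passed it at -0.62 when all 6 arrays were quantile-normalized together. It was thus lower with added NRF3 as well as after NRF3 siRNA. ITGB5 was at 8.55 and 8.85 (0.31), and was the only expressed member that was higher with NRF3. ITGB4 was at 6.35 and 5.96 (-0.38) and ITGA3 at 10.25 and 9.99 (-0.26).

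ITGA6 was at 11.19 and 11.04 (-0.15), ITGB1 at 9.43 and 9.27 (-0.16) and ITGAV at 8.48 and 8.43 (-0.05). These 3 chains lay within 0.2 of their GFP level. ITGB6 was at 4.47 and 4.74 and ITGB8 at 4.86 and 4.29, below 6 on both arrays.

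Repeats of an NRF3 difference exist only across lines, and H1299 carried a stable plasmid where the colon lines received siRNA. limma was therefore fitted to HCT116 and H1299, leaving out the HCT116-p53KO pair that chose the set, for more NRF3 minus less with the line as a block. It called 0 of 14400 genes at a Benjamini-Hochberg adjusted p of 0.05 (0% called), and 821 had an unadjusted p of 0.05 or less. NFE2L3, the targeted gene, was itself at an adjusted p of 0.235 in limma. With all 6 arrays limma called 1 gene, NFE2L3 (limma adjusted p = 0.0401), and no member. The largest values among the 9 members tested were -0.75 ± 0.19 (SE) for ITGB8 and 0.70 ± 0.23 for ITGB5, with limma adjusted p of 0.848 for each. ITGB8 entered this fit through a single array at 6 or more, HCT116 with NRF3 siRNA. ITGA2 was at 0.36 ± 0.24 with a limma adjusted p of 0.851. Such p-values reflect how the difference varied between lines, not between cultures of a line. Line and method (siRNA or stable plasmid) changed together between HCT116 and H1299, so their parts in that spread cannot be told apart.

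HCT116-p53KO was compared with HCT116 to ask how the chains stood in the line without p53. The laminin receptor chains were lower in HCT116-p53KO with either siRNA. ITGB4 was at 10.58 in HCT116 and 9.73 in HCT116-p53KO with control siRNA (1.81-fold lower), and at 10.79 and 9.48 with NRF3 siRNA (2.47-fold lower). ITGA3 was 1.58-fold lower with control siRNA and 1.99-fold lower with NRF3 siRNA. ITGA6 was lower by 1.38-fold and 1.57-fold. In the RefSeq annotation ITGB4 overlaps GALK1, which has its own row on the array. Among members at 6 or more on all 4 colon arrays, these laminin receptor chains lay furthest below the parent line.

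With control siRNA 2 of 8 expressed members were at least 1.5-fold lower and 0 at least 1.5-fold higher, beside 3.45% and 0.868% of 13827 expressed genes. With NRF3 siRNA 3 of 9 were at least 1.5-fold lower and 0 higher, beside 4.75% and 5.6% of 14007. These comparisons share arrays with the knockdown comparisons and are not independent of them. limma over the 4 colon arrays, with the siRNA as a block, called 4 of 9 members lower and none higher. Of all 14148 genes it called 4.65% lower and 3.46% higher. ITGB4 fell by 1.08 ± 0.16 (SE; limma adjusted p = 2.06e-09), ITGA3 by 0.82 ± 0.16 (limma adjusted p = 1.82e-05) and ITGA6 by 0.55 ± 0.16 (limma adjusted p = 0.0114). ITGB8 fell by 0.48 ± 0.16 (limma adjusted p = 0.0416). The ITGB8 call was lost with a trended prior (limma adjusted p = 0.125) and after quantile normalization over 6 arrays (limma adjusted p = 0.127). ITGB4, ITGA3 and ITGA6 stayed called in both. After quantile normalization their limma adjusted p was 0.00478, 0.00985 and 0.0354, and with a trended prior it was smaller than in the first fit. Each gene had 1 residual degree of freedom, and in the first of these fits the prior gave every gene the same spread. Its p-values set each line difference against the spread between siRNA conditions pooled over all genes. The trended prior took the spread of these chains from genes of like intensity, also not from the chain itself. Its smaller p-values are therefore no added support. The p-values of both fits measure neither a gene's own spread nor that between cultures of a line. The fit after quantile normalization did not measure the spread between cultures either.

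ITGA2 did not keep the sign of its line difference. It was 0.47 higher in HCT116-p53KO than in HCT116 with control siRNA and 0.45 lower with NRF3 siRNA. The order of its colon arrays was HCT116-p53KO control (10.58), HCT116 control (10.11), HCT116 NRF3 siRNA (9.35) and HCT116-p53KO NRF3 siRNA (8.90). The line without p53 thus held both the highest and the lowest array. In the limma line fit ITGA2 averaged 0.01 ± 0.16 (limma adjusted p = 0.988), with the SE pooled over all genes and not showing this change of sign. ITGAV also changed sign, at -0.33 with control siRNA and 0.24 with NRF3 siRNA. The 8 other members were lower in HCT116-p53KO with both siRNAs, ITGB6 and the control arrays of ITGB8 included although they lay under 6.

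**Figure D3:**
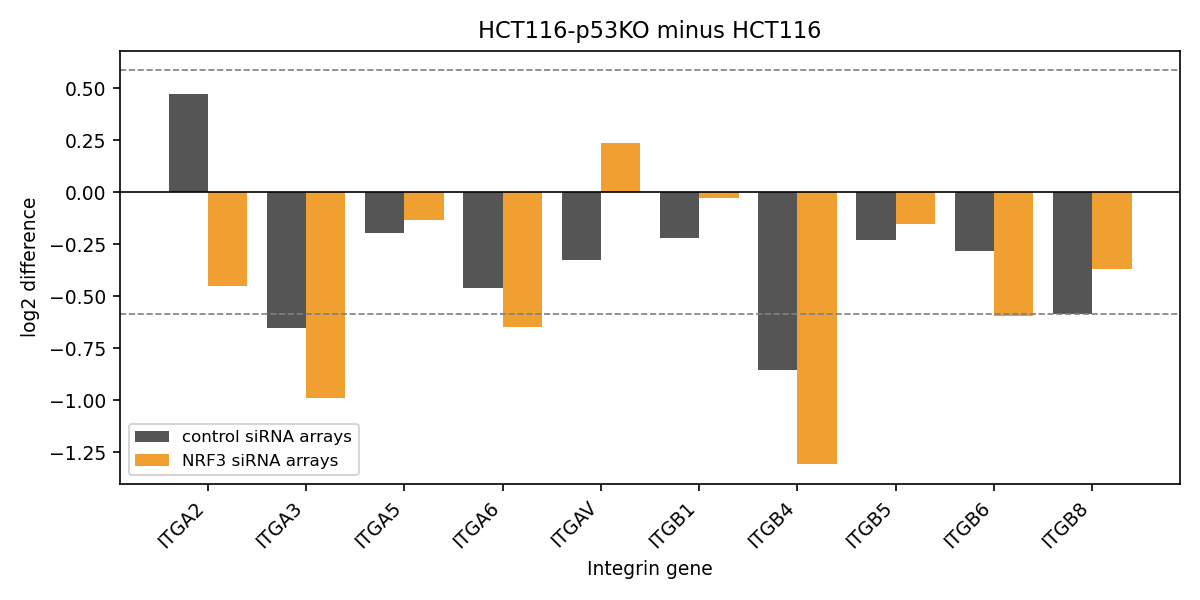
log2 difference of each integrin gene for HCT116-p53KO minus HCT116, with control siRNA (grey) and with NRF3 siRNA (orange), 1 array on each side; dashed lines mark 1.5-fold. ITGB4 and ITGA3 lie below the lower line with both siRNAs, and ITGA2 is at 0.47 and -0.45.

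Most epithelial markers also differed with the line and the siRNA in the same arrays. The mean log2 intensity of the 6 measured markers was 11.43 and 10.98 in HCT116 with control and NRF3 siRNA, 10.91 and 10.49 in HCT116-p53KO, and 6.73 and 6.72 in H1299. In HCT116-p53KO against HCT116 with control siRNA all 6 were lower, and 3 passed 1.5-fold: CLDN4 (-0.82), a tight junction protein, KRT18 (-0.74), a keratin, and CDH1 (-0.61), E-cadherin. Of all 13827 expressed genes 6713 were lower, and 3.45% were at least 1.5-fold lower. With NRF3 siRNA 5 of the 6 were lower in HCT116-p53KO, where 6610 of 14007 expressed genes were, and EPCAM was higher (0.27). After NRF3 siRNA all 6 markers were lower in HCT116 (CDH1 -0.71) and 5 of 6 in HCT116-p53KO (CLDN4 -0.78, KRT8 -0.73), where EPCAM was higher (0.14). Of all expressed genes 6792 of 14034 and 6773 of 13680 were lower. The part of the epithelial markers in the integrin values was not tested.

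The 8 chains expressed in H1299 were expressed on the colon arrays too, and their levels were set side by side. Of the 8 pairs of a lung with a colon array, ITGA2 was lower in H1299 in all, with differences of -3.84 to -2.12 (log2) on the deposited values. ITGB4 was lower in all 8, at -4.83 to -3.14, with sizes uncertain where the H1299 NRF3 array (5.96) is 1 of the pair. ITGA6 was higher in all 8, by 0.68 to 1.74, so the chain that pairs with ITGB4 was high where ITGB4 was low. The lung and colon arrays may have been normalized apart, and after quantile normalization over all 6 arrays the differences ran from -2.87 to -1.14 for ITGA2, from -3.98 to -2.19 for ITGB4 and from 1.51 to 2.66 for ITGA6. The direction of several chains depended on this step. ITGB1 was lower in H1299 in all 8 pairs as deposited (-0.52 to -0.01) and higher in all 8 after it (0.36 to 1.01). ITGAV ran from -0.80 to 0.14 as deposited and from 0.11 to 1.04 after it, and ITGA5 from -1.90 to -0.41 and then from -1.01 to 0.61. ITGB8 (-2.40 to -0.31, then -1.59 to 0.48) and ITGB6 (-1.30 to -0.43, then -0.49 to 0.32) were under 6 on both lung arrays. ITGA3 (-0.91 to 0.34, then -0.11 to 1.33) and ITGB5 (-1.53 to 0.03, then -0.58 to 0.98) differed in sign among the pairs on either scale. No order between the lines can be read for these 7 chains.

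Pairs of colon arrays that differ in both line and siRNA complete the picture for ITGA2. HCT116-p53KO with NRF3 siRNA was 1.21 (log2) below HCT116 with control siRNA, and HCT116-p53KO with control siRNA was 1.23 above HCT116 with NRF3 siRNA.

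Genes whose pattern was most like that of ITGA2 were ranked by Euclidean distance over 4 differences: NRF3 siRNA in either colon line, NRF3 in H1299, and HCT116-p53KO minus HCT116 with control siRNA. Among 10853 genes expressed in all 4, the nearest was BHLHE40 (distance 0.60), a circadian and hypoxia-responsive repressor, at -0.99 in HCT116 and -1.45 in HCT116-p53KO after siRNA. SLC35B4 (0.66), a nucleotide sugar transporter, KRT80 (0.69), an epithelial keratin, and BNIP3L (0.72), a mitophagy receptor, were also among the nearest 5. These 4 shared with ITGA2 a higher level in HCT116-p53KO than in HCT116 with control siRNA, between 0.27 and 0.95, which the distance itself selects for.

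The other integrin chains offered a comparison within the family. Of 16 listed, 15 were measured, and 9 were expressed in each colon knockdown comparison. In H1299 2 were expressed. None of those expressed reached 1.5-fold in any NRF3 comparison, with medians of 0.01 in HCT116 and -0.07 in HCT116-p53KO, and of -0.28 for the pair expressed in H1299. Of all expressed genes 2.71% did so upward and 6.02% downward in HCT116, and 3.63% and 2.38% in HCT116-p53KO. In H1299 the shares were 4.82% and 4.2%, so a short list with none is not set apart by its count. ITGA8, under 6 on all arrays and so not counted, was at 4.18 and 5.06 in HCT116 (0.89). Most lay close to 6, such as ITGA2B (6.35 to 6.65 on the colon arrays), the platelet fibrinogen receptor chain, and ITGB2 (6.38 to 6.47), the leukocyte chain. ITGA4, a fibronectin and VCAM1 receptor chain, was expressed only in H1299, at 7.32 with GFP and 7.07 with NRF3. ITGA1, which also pairs with ITGB1 to bind collagen, was not analysed here.

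Among the genes that carry the integrin signal inside the cell, PXN and TNS4 were lower in both knockdowns. PXN, which encodes paxillin, was at 9.70 and 8.53 in HCT116 (2.25-fold lower) and at 9.67 and 8.45 in HCT116-p53KO (2.33-fold lower), and at 9.27 and 9.31 in H1299. TNS4, a tensin that binds beta chain tails, was at 10.61 and 9.88 in HCT116 (1.66-fold lower) and at 10.40 and 9.42 in HCT116-p53KO (1.97-fold lower). These 2 were the only ones of 22 expressed talin, kindlin and focal adhesion genes at least 1.5-fold lower in either line. Of all expressed genes 6.02% in HCT116 and 2.38% in HCT116-p53KO were, and the count was not tested against these shares. LPXN, a paxillin relative, was 1.79-fold higher in HCT116-p53KO. The medians of the list were -0.14, -0.06 and 0.11 in HCT116, HCT116-p53KO and H1299. In H1299 LIMS1, an adaptor of integrin-linked kinase, was 1.94-fold higher and FERMT1, the epithelial kindlin, 1.76-fold lower.

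Matrix ligands at 1.5-fold numbered 1 in each colon line, both higher, where 2.71% and 3.63% of all expressed genes were. Of 16 expressed in HCT116 only CCN1, a matricellular protein, reached 1.5-fold (1.60-fold higher), and of 15 in HCT116-p53KO only NPNT, nephronectin (1.93-fold higher). In H1299 5 of 14 did, 3 higher and 2 lower, where 4.82% and 4.2% of all 11304 expressed genes were. LAMB3, the beta chain of laminin-332, was at 7.05 with GFP and 9.02 with NRF3 (3.93-fold higher), CCN2 was 3.07-fold and CCN1 2.82-fold higher, THBS1, thrombospondin, was 2.88-fold lower and FN1, fibronectin, was at -0.77. Of the integrin chains themselves 0 of 8 reached 1.5-fold there, and the counts were not tested against each other.

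Genes of integrin traffic, membrane partners and the hemidesmosome made up the rest. DAB2, an adaptor of integrin endocytosis, was lower in all 3 comparisons, at -0.93, -0.85 and -1.92, the last with an array under 6. RAB5A, an early endosome GTPase, was at 0.42 and 0.59 after siRNA. Of 9 tetraspanins and membrane partners 8 were lower after siRNA in each colon line, where 6792 of 14034 and 6773 of 13680 of all expressed genes were. In H1299 6 of the 9 were lower, and in HCT116-p53KO against HCT116 3 were lower with control siRNA and 4 with NRF3 siRNA. None reached 1.5-fold after siRNA, with CD81 at -0.42 and CD9 at -0.40 in HCT116. SLC3A2, the heavy chain of amino acid transporters that binds beta chains, was 1.95-fold higher with NRF3 in H1299. ERBIN, which binds the ITGB4 tail, was 1.60-fold lower after siRNA in HCT116 and at -0.09 in HCT116-p53KO. PLEC, plectin, which links ITGB4 to keratins, was at 0.06 and -0.29. In the list compiled as inhibitors of integrin activation, a role not tested here, KANK1 was at 0.36 and 0.60. Of that list 6 of 7 were higher in HCT116 (7241 of 14034 for all expressed genes), 4 of 7 in HCT116-p53KO (6902 of 13680) and 3 of 6 in H1299 (5586 of 11304).

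**Figure D4:**
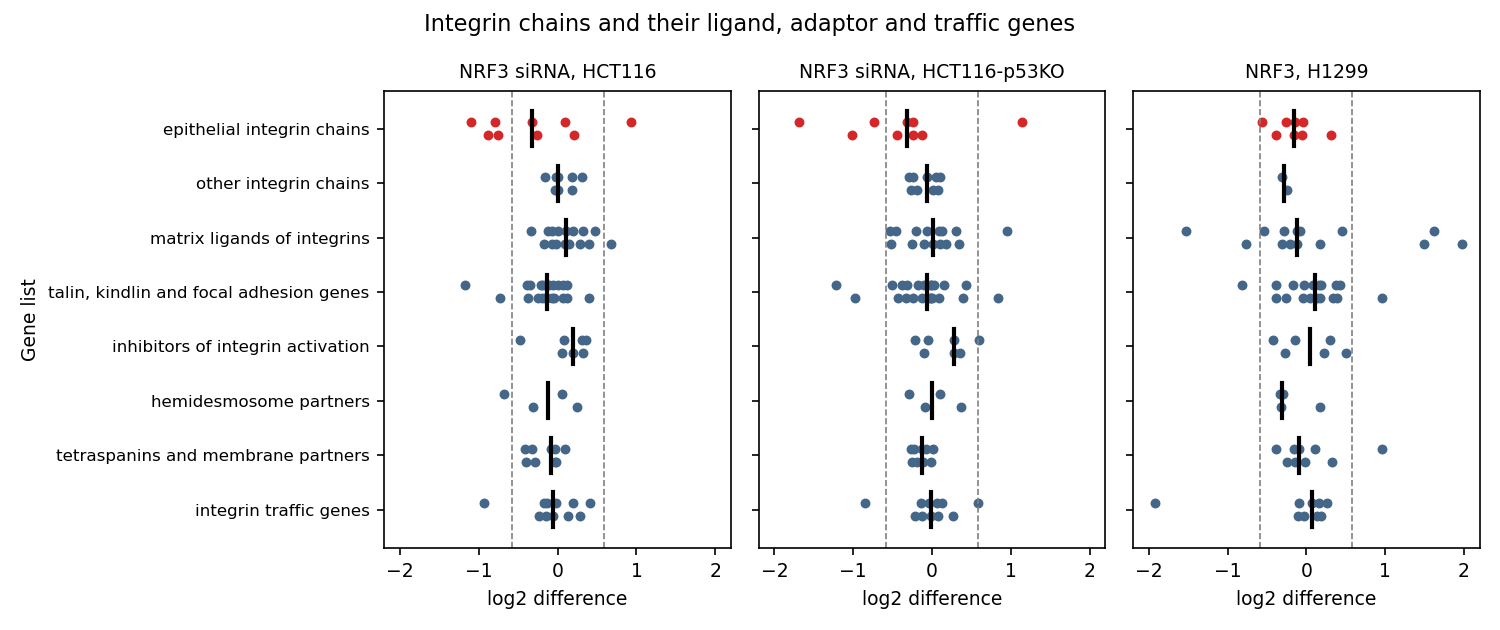
log2 difference of each expressed gene (points) by list for NRF3 siRNA in HCT116, NRF3 siRNA in HCT116-p53KO and NRF3 in H1299; black bars are list medians, red points the epithelial integrin chains and dashed lines 1.5-fold. The integrin chains spread from -1.10 to 0.93 in HCT116, where the other integrin chains stay between -0.16 and 0.31. The value of 0.93 is ITGB8, whose control array lay under 6. Those other chains were all low on the scale in HCT116, from 5.89 (ITGAX) to 6.81 (ITGA11), so the spreads are not like for like.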

How the data were processed

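The authors deposited log2 intensities for 33297 probe sets on 6 arrays. They used RMA and Affymetrix Expression Console, according to the submitters' processing notes, and the joint or separate normalization of the lines is not stated. RMA corrects background, quantile-normalizes and summarises probes, which compresses small signals. Probe sets with 1 annotated symbol (19460) gave 18417 genes, using the row with the highest mean. Differences of log2 values were taken for genes reaching 6 on either array, and counted at 1.5-fold. limma 3.58.1 (R 4.3.3) was fitted across all expressed genes, two-sided, with Benjamini-Hochberg adjustment at 0.05, and checked on simulated data with known changes. Named were all members, other integrin chains at 1.5-fold in an NRF3 comparison, up to 4 genes per further list and NRF3 comparison with the largest differences, and the 5 genes nearest to ITGA2, of which 1 is not reported here; ITGA2B, ITGB2, ITGA4, ITGA8 and markers were named after their values were seen. Members and lists were chosen with earlier results of these data known. Alternatives were other filters (none, 7), folds (2-fold, and a log2 difference of 0.32), averaged rows of a gene, quantile normalization over 6 arrays, loess (span 0.4), other priors, an adjusted p of 0.10 and other sets of arrays. The number of arrays limits the precision. Promoters and names came from RefSeq, GRCh38.p14.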

Additional observations from a re-analysis of the deposited data

Results flagged for a closer look

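With NRF3 siRNA, ITGA3 was at 0.10 in HCT116 and -0.24 in HCT116-p53KO, and ITGB4 was at 0.21 in HCT116 and -0.24 in HCT116-p53KO. Both were noted because the single pair of arrays in each line moved in opposite directions. With 1 array per group the difference between the lines was not tested, and every one of these values is under 1.5-fold.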

How the results depend on the processing

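The counts of members at 1.5-fold or more in either direction were 5 for NRF3 siRNA in HCT116, 4 in HCT116-p53KO, 0 for NRF3 in H1299, and 2 and 3 for HCT116-p53KO against HCT116 with control and NRF3 siRNA. At 2-fold they were 1 for NRF3 siRNA in HCT116 and, for HCT116-p53KO against HCT116, 0 with control siRNA and 1 with NRF3 siRNA. At a log2 difference of 0.32 they were 2 in H1299 and 5 for each comparison of the colon lines. In H1299 the count was 1 after quantile normalization over 6 arrays and 1 after loess correction, both times ITGA5 (-0.62 and -0.61). Averaging a gene's rows changed nothing, since each member has 1 row. Of 43 single differences 41 kept their side of 1.5-fold under loess and 42 under quantile normalization. The limma count of 0 for HCT116 with H1299 was 5 over the 4 colon arrays, where 1398 of all 14148 genes were called. That fit includes the pair by which the set was chosen and pools the spread over all genes, so nothing is read from its count. The labels give no replicate numbers, so no block by replicate could be fitted; the limma fits carry the line or the siRNA as their block. Signals under 6, which include every ITGB6 value and the control arrays of ITGB8, limit the sizes of their differences.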
